A study of Sorghum bicolor with 12 samples.

Results

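Expression of the sucrose-phosphate synthase (SPS) family was followed at 5 loci in whole seedlings of sorghum (Sorghum bicolor): Sb03g043900, Sb04g005720, Sb05g007310, Sb09g028570 and Sb10g025240. The members were the probes of a custom single-colour Agilent array whose locus name was 1 of these 5, and they made up 5 of the 35577 loci and of the 41977 probes of the design, with 1 probe on 1 spot for each locus. The sweet cultivar Keller and the grain cultivar BTX623 were each sampled before treatment (0 h) and after 2 h and 6 h in a 5% solution of sucrose, which gave 6 groups of 2 arrays: Keller 0 h, Keller 2 h, Keller 6 h, BTX623 0 h, BTX623 2 h and BTX623 6 h. All seedlings were 14 days old, came from a greenhouse with natural light, and were washed before they were placed in the solution. The 2 replicates of a group were biological repeats. The study grew its repeats as separate plantings, with 1 plant to a pot, and which planting gave which array is not stated in the sources used here. No seedlings that spent the same hours in water entered the comparisons, so sucrose, the handling of the roots and the hours that passed cannot be told apart. All values came from whole seedlings, in which fewer cells of a type and less RNA per cell cannot be told apart.

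SPS joins UDP-glucose and fructose-6-phosphate to sucrose-6-phosphate in the cytosol, and sucrose-phosphatase then releases free sucrose. This pair of enzymes makes most of the sucrose that leaves carry to stems, roots and grain, and in grasses SPS is encoded by several genes that differ in the tissue where they are most active. The enzyme is also controlled after translation, by phosphorylation and by hexose phosphates, so a transcript level is not an activity. Sweet sorghums are known for the sugar they store in the stalk, and the comparison of Keller with BTX623 asks which genes differ between a line that stores much sugar and a line that stores little.

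The gene lists of the study, which name no genome build, placed Sb03g043900 on chromosome 3 from 71151669 to 71157243 on the minus strand, Sb04g005720 on chromosome 4 from 5618629 to 5625317 on the plus strand, and Sb05g007310 on chromosome 5 from 12997940 to 13003645 on the plus strand. Sb09g028570 lay on chromosome 9 from 57451167 to 57463622 and Sb10g025240 on chromosome 10 from 54433786 to 54443672, both on the minus strand. The first 4 loci were annotated there as similar to an SPS. Sb10g025240 was annotated only as similar to an uncharacterized protein, and it was listed as the segmental duplicate of Sb04g005720. No match to a RefSeq symbol was found for these loci, so they are called by their locus names.

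A value below is the log2 processed signal of a probe minus the log2 of the 75th percentile of its array, so that 0 marks a signal equal to that percentile. The percentile lay between 323 and 677 signal units over the 12 arrays, and 67.5% to 82.4% of the probes of an array were well above background. The arrays lay on 3 slides of 4, so slide was partly tied to replicate number, cultivar and time. All 5 SPS probes were well above background on all 12 arrays, with no saturated or outlier spot, and all 5 were among the 31947 probes that passed the filter on dim probes. Leaf and root RNA were both present on every array. The 3 leaf markers (Rubisco small chain, C4 phosphoenolpyruvate carboxylase and a chlorophyll a-b binding protein) and the 3 root cap markers were well above background on all 12 arrays. Levels of different probes depend on the probe and were not compared with each other. Whether a probe also binds the transcript of a related SPS gene was not tested. A difference was called where its limma p, adjusted by the Benjamini-Hochberg method over all probes kept, was under 0.05 and its size was 2-fold or more.

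Of the 5 loci, only Sb03g043900 was called in any comparison of times or cultivars in the fit without a block. It fell by 1.50 on the log2 scale at 6 h against 0 h, averaged over Keller and BTX623 (SE 0.263, 2.83-fold, limma adjusted p = 0.0084). Sb05g007310 was lower at 6 h on all 4 pairs of arrays with the same cultivar and replicate number, without passing the test. Sb04g005720, Sb09g028570 and Sb10g025240 had mean differences within 0.29 of 0 in that comparison. The background was high, since 9.12% of all probes tested were called in the same comparison, and 1 call among 5 loci is to be read against that share. No member was called for a difference between Keller and BTX623.

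**Figure D1:**
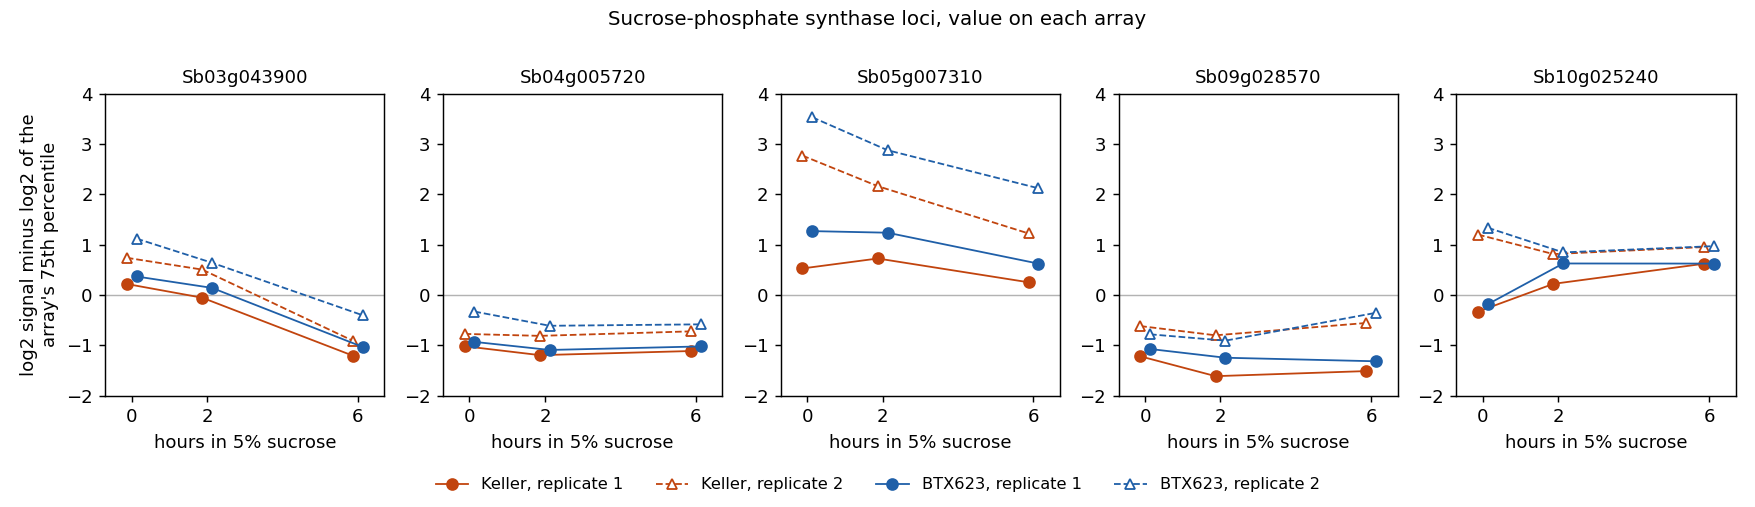
The scaled log2 value of each SPS locus on each of the 12 arrays (vertical axis, 0 marks the 75th percentile of the array) is plotted against hours in 5% sucrose, with Keller in red and BTX623 in blue, circles for replicate 1 and triangles for replicate 2. The 4 arrays of 6 h lie below all 8 earlier arrays for Sb03g043900, a separation that was not counted over all probes. At each time the triangle of Sb05g007310 stands above the circle of the same cultivar.

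Sb03g043900 had 0.22 and 0.74 at 0 h, -0.05 and 0.51 at 2 h, and -1.20 and -0.91 at 6 h on the Keller arrays of replicates 1 and 2. On the BTX623 arrays it had 0.37 and 1.12 at 0 h, 0.14 and 0.64 at 2 h, and -1.03 and -0.40 at 6 h. The 4 arrays of 6 h were thus the 4 lowest. The highest of them (BTX623, replicate 2, -0.40) lay below the lowest earlier array (Keller, replicate 1, 2 h, -0.05). The share of all probes with such a separation was not counted, so it is not known how particular it is to this locus. In order of group means the locus ran from BTX623 0 h (0.75) through Keller 0 h (0.48), BTX623 2 h (0.39), Keller 2 h (0.23) and BTX623 6 h (-0.72) to Keller 6 h (-1.06). Neighbouring groups overlapped in their arrays, except that Keller 2 h and BTX623 6 h did not. On the linear scale the group means at 6 h were 0.481 times the 75th percentile in Keller and 0.609 times in BTX623, against 1.40 and 1.68 times at 0 h.

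The decline of Sb03g043900 was close in size in both cultivars. The difference at 6 h against 0 h was -1.54 (SE 0.372, limma adjusted p = 0.0748) in Keller and -1.46 (SE 0.372, limma adjusted p = 0.075) in BTX623, so neither was called within a cultivar, where 2.20% of probes in Keller and 2.97% in BTX623 were called. With the replicate number as a block, both were called at the same size (adjusted p = 0.00203 in Keller and 0.00248 in BTX623), beside 7.67% and 9.25% of all probes. The 6 h change differed between Keller and BTX623 by -0.08 (95% interval -1.27 to 1.12, limma adjusted p = 0.999945), an interval that holds differences of over 2-fold either way. With the replicate block the interval was -0.63 to 0.48, which holds no difference of 2-fold. Without the block 0% of probes were called for that difference (293 probes of at least 2-fold had an unadjusted p under 0.05). Within single slides the locus differed by -1.43 between 6 h and 0 h in Keller replicate 1 and by -1.52 in BTX623 replicate 2. The mean over the cultivars was also called with the replicate block (adjusted p = 0.000167, beside 13.0% of all probes), and with any of the 12 arrays left out (adjusted p 0.0107 to 0.0364). Without scaling of the arrays the difference was -1.39 and its adjusted p was 0.176.

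Most of that difference appeared after 2 h. At 2 h against 0 h, Sb03g043900 differed by -0.30 (SE 0.263, limma adjusted p = 0.604), lower on 4 of 4 same-numbered pairs of arrays, and no member was called in that comparison, in which 2.44% of probes were. At 6 h against 2 h it differed by -1.20 (SE 0.263, limma adjusted p = 0.067), again lower on 4 of 4 pairs. That was not called without a block, where 1.19% of probes were, and was called with the replicate block (adjusted p = 0.00359), where 4.21% were. Within the cultivars no member was called at 2 h against 0 h, beside 0.160% of probes in Keller and 0.182% in BTX623.

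**Figure D2:**
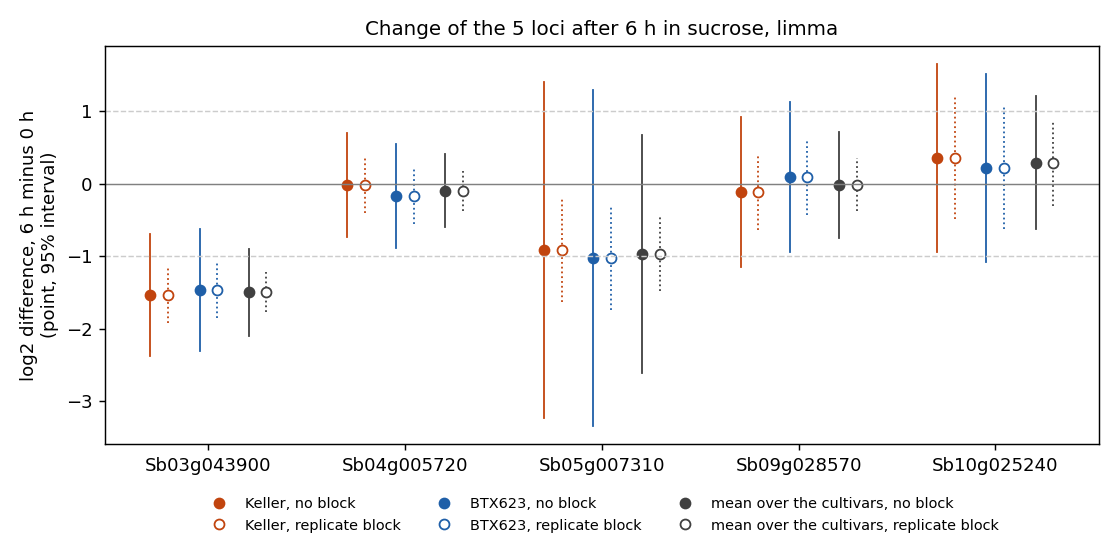
The log2 difference between 6 h and 0 h from limma (points, with 95% intervals as lines) is given for each locus in Keller, in BTX623 and as the mean over both, from the fit with no block (filled) and with the replicate block (open), with dashed lines at 2-fold. The intervals of Sb03g043900 lie below 0 in both fits, those of Sb05g007310 only with the block, and those of the other loci include 0 in both.

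Sb05g007310 had the widest range of the 5, from 0.25 to 3.53. It had 0.53 and 2.77 at 0 h, 0.73 and 2.16 at 2 h, and 0.25 and 1.22 at 6 h on the Keller arrays of replicates 1 and 2. The BTX623 arrays had 1.27 and 3.53 at 0 h, 1.24 and 2.88 at 2 h, and 0.63 and 2.12 at 6 h. Replicate 2 lay above replicate 1 by 0.97 to 2.26 in each group, and all 6 groups overlapped their neighbours in the order BTX623 0 h, BTX623 2 h, Keller 0 h, Keller 2 h, BTX623 6 h and Keller 6 h.

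Between arrays of the same cultivar and replicate number, Sb05g007310 was lower at 6 h than at 0 h in 4 of 4 pairs, with differences of -0.28 to -1.55. The limma difference of 6 h against 0 h was -0.97 (SE 0.724, adjusted p = 0.417), and with the replicate block the same difference had an adjusted p of 0.0146, a size of 1.96-fold that stayed just under the 2-fold limit. With no minimum fold, 27.0% of all probes passed in that fit. With slide as the block the difference was -1.52 and was called (adjusted p = 0.0272). With both blocks together, a fit added after the values were seen, it was -0.93 (adjusted p = 0.147). The share of all probes called in these fits was not counted. The decline at this locus was therefore not separable from the spread between replicates in the fit without a block, and its call changed with the block used.

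Sb10g025240 took different courses in the 2 replicates. In replicate 1 it had -0.33, 0.22 and 0.62 at 0, 2 and 6 h in Keller and -0.18, 0.63 and 0.63 in BTX623. In replicate 2 it had 1.20, 0.81 and 0.95 at 0, 2 and 6 h in Keller and 1.34, 0.85 and 0.97 in BTX623. The replicates thus lay 1.53 apart in Keller and 1.52 apart in BTX623 at 0 h, and 0.33 and 0.35 apart at 6 h, and the same pattern was seen in both cultivars. The mean difference at 6 h against 0 h was 0.29 (SE 0.405, limma adjusted p = 0.692), with 2 pairs higher and 2 pairs lower. In a limma fit added after these values were seen, with the replicate number and its product with time, the 6 h change of Sb10g025240 was lower in replicate 2 than in replicate 1, with a difference of -1.19 (SE 0.211, adjusted p = 0.0233), and the 2 h change had a difference of -1.12 (SE 0.211, adjusted p = 0.0445). That fit rested on 3 residual degrees of freedom a probe and called 7.71% of all probes for the 6 h change and 3.49% for the 2 h change. Its p-values measure how alike the replicate gaps of the 2 cultivars were at each time. They do not measure how a further repeat would differ. Of the other 4 loci, none was called there. Sb05g007310 came closest, at -1.02 for the 6 h change (adjusted p = 0.051).

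Within slides each of the 2 courses of Sb10g025240 was seen, but on different slides. On slide 1, Keller replicate 1 was higher at 6 h than at 0 h by 0.95, and on slide 3, BTX623 replicate 2 was lower by 0.36. The rise of BTX623 replicate 1 lay between slide 1 (0 h) and slide 2 (2 h and 6 h). On slide 2 its 6 h minus 2 h difference was -0.002. These pairs therefore do not separate replicate number from slide. In order of group means the locus ran from BTX623 6 h (0.80), Keller 6 h (0.79), BTX623 2 h (0.74), BTX623 0 h (0.58) and Keller 2 h (0.52) to Keller 0 h (0.44), and every neighbouring pair overlapped.

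Sb04g005720, the segmental duplicate of Sb10g025240, was the flattest of the 5, with a range of 0.87 over the 12 arrays. It had -1.02 and -0.77 at 0 h, -1.19 and -0.81 at 2 h, and -1.11 and -0.72 at 6 h in Keller, and -0.93 and -0.33 at 0 h, -1.09 and -0.61 at 2 h, and -1.02 and -0.58 at 6 h in BTX623. All neighbouring groups overlapped in the order BTX623 0 h, BTX623 6 h, BTX623 2 h, Keller 0 h, Keller 6 h and Keller 2 h. The difference of 6 h against 0 h was -0.10 (95% interval -0.60 to 0.41, limma adjusted p = 0.816), an interval that holds no change of 2-fold. The course of Sb10g025240 in replicate 1, higher at 6 h than at 0 h in both cultivars, was not shared by Sb04g005720, which was lower by 0.10 in Keller and by 0.09 in BTX623 there. A test of that difference between the duplicates was not made.

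Sb09g028570 had -1.22 and -0.62 at 0 h, -1.61 and -0.80 at 2 h, and -1.51 and -0.55 at 6 h in Keller. In BTX623 it had -1.07 and -0.78 at 0 h, -1.24 and -0.91 at 2 h, and -1.32 and -0.35 at 6 h. All arrays of replicate 2 lay above all arrays of replicate 1, as they also did at Sb04g005720 and Sb10g025240. The share of all probes with such a separation of the replicates was not counted. Every neighbouring pair of groups overlapped, from BTX623 6 h at the top through Keller 0 h, BTX623 0 h, Keller 6 h and BTX623 2 h to Keller 2 h. The difference of 6 h against 0 h was -0.01 (95% interval -0.74 to 0.72, limma adjusted p = 0.987), with 2 pairs lower and 2 pairs higher.

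The cultivars were compared at each time and as a mean over the times. None of the 5 loci was called at 0 h, 2 h or 6 h, where 2.18%, 2.34% and 2.21% of all probes were, or as the mean over the times, where 5.00% were. All 6 same-numbered pairs of arrays were lower in Keller than in BTX623 at Sb03g043900, Sb04g005720, Sb05g007310 and Sb10g025240, and 4 of 6 were at Sb09g028570. The share of all probes with all 6 pairs in the same direction was not counted. At Sb10g025240 the pairs ran from -0.41 to -0.002. The size was small at most of the loci, with mean differences of -0.26 at Sb03g043900 (SE 0.215, limma adjusted p = 0.608), -0.18 at Sb04g005720 (SE 0.183, adjusted p = 0.688), -0.11 at Sb09g028570 (SE 0.264, adjusted p = 0.889) and -0.12 at Sb10g025240 (SE 0.331, adjusted p = 0.898). The 5 loci were measured on the same arrays, so their shared direction is not 5 separate observations. Without scaling of the arrays the number of lower pairs was 5 of 6 at Sb03g043900 and Sb04g005720, 6 of 6 at Sb05g007310 and 4 of 6 at Sb09g028570 and Sb10g025240, and with slide as a block the mean difference was above 0 at all loci but Sb03g043900. No probe of the array, and so no member, was called for a difference between the cultivars in the 2 h change (0% of probes, with 241 of at least 2-fold at an unadjusted p under 0.05).

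The difference was widest at Sb05g007310. Keller was lower than BTX623 in each of the 6 pairs, with differences of -0.37 to -0.90, which gave a mean of -0.67 (SE 0.591, 95% interval -2.01 to 0.67, limma adjusted p = 0.632). With the replicate block its adjusted p was 0.0466, at 1.59-fold and so under the 2-fold limit, and 13.0% of all probes passed that test with no minimum fold. Some pairs lay within a slide. Arrays of the same replicate number shared a slide at 0 h on slide 1, where Keller minus BTX623 was -0.74, and at 6 h on slide 3, where it was -0.90. On slide 2, Keller replicate 2 at 2 h had 2.16 and BTX623 replicate 1 at 2 h had 1.24, so there Keller was the higher, in the direction of the replicate numbers. With slide as the only block the mean difference was 0.07 (adjusted p = 0.916), and with slide and replicate number together it was -0.72 (adjusted p = 0.41).

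**Figure D3:**
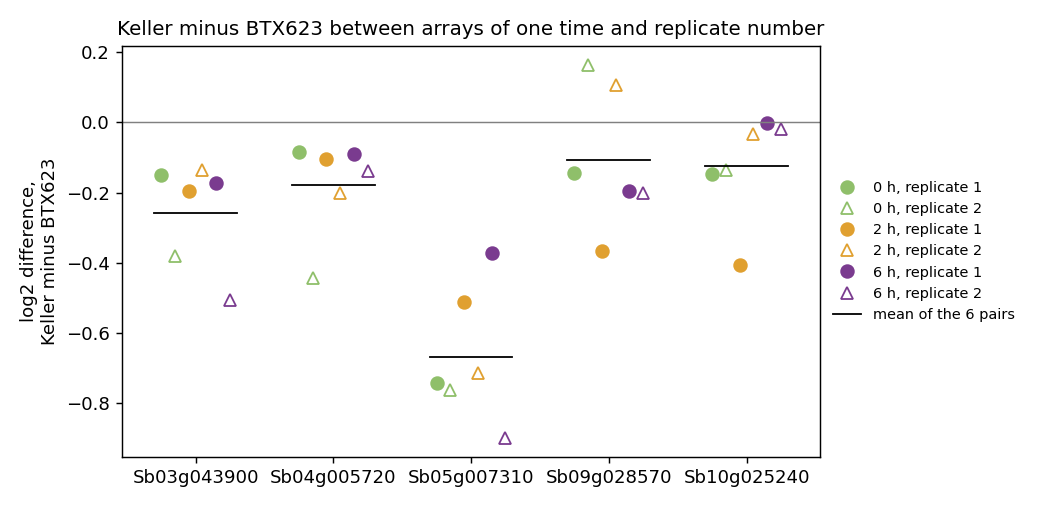
The log2 difference Keller minus BTX623 is plotted for each SPS locus between the 2 arrays that share a time (colour) and a replicate number (circle for 1, triangle for 2), with a black line at the mean of the 6 pairs. All 6 pairs lie below 0 at 4 of the loci, and those of Sb05g007310 lie farthest below, from -0.37 to -0.90. The share of all probes with all 6 pairs below 0 was not counted.

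Replicate 2 was higher than replicate 1 in all 6 groups at each of the 5 loci. The mean gap, a test added after the values were seen, was 1.67 at Sb05g007310 (SE 0.18, 3.19-fold, limma adjusted p = 0.00171), and gaps between the arrays of a group ran from 0.97 in Keller 6 h to 2.26 in BTX623 0 h. It was 0.76 at Sb10g025240 (adjusted p = 0.035), 0.66 at Sb09g028570 (adjusted p = 0.0111), 0.54 at Sb03g043900 (adjusted p = 0.00802) and 0.42 at Sb04g005720 (adjusted p = 0.018). Only Sb05g007310 was past 2-fold, beside 7.23% of all probes in either direction and 4.01% that were higher in replicate 2. With no minimum fold all 5 loci passed, beside 24.7% of all probes in either direction and 12.0% that were higher in replicate 2. The share of all probes higher in replicate 2 in all 6 groups was not counted. Slide 2 held arrays of both replicates. On it Sb05g007310 had 2.77 and 2.16 on the Keller arrays of replicate 2, against 1.24 and 0.63 on the BTX623 arrays of replicate 1. The share of planting, slide, cultivar and time in these values cannot be told apart from the 4 arrays of 1 slide.

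**Figure D4:**
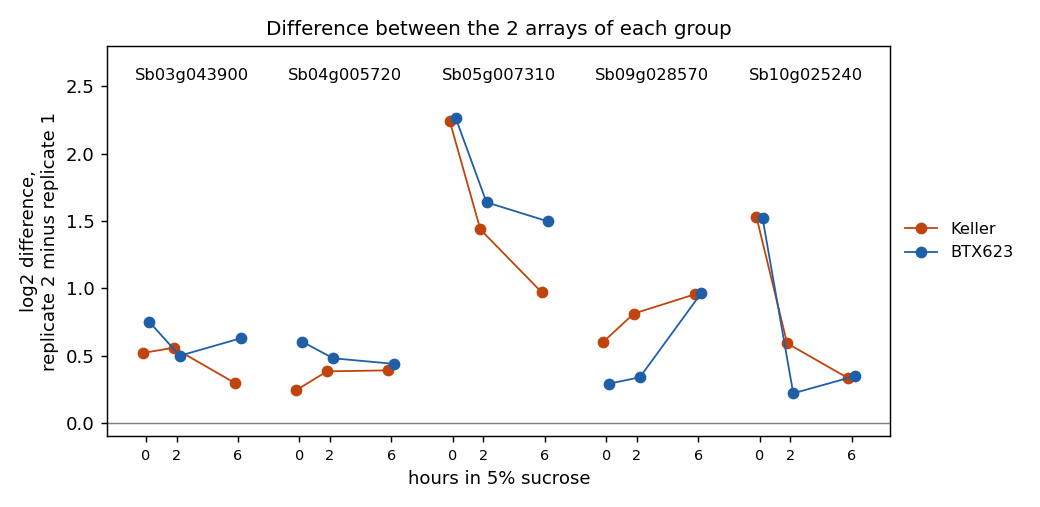
The log2 difference between the 2 arrays of each group, replicate 2 minus replicate 1, is plotted for each SPS locus against hours in 5% sucrose, with Keller in red and BTX623 in blue. All 30 gaps are above 0, and the share of all probes with every gap above 0 was not counted. At Sb10g025240 they are 1.53 and 1.52 at 0 h and 0.33 and 0.35 at 6 h in Keller and BTX623.

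The loci were also described by their likeness over the 12 arrays, with no test, since the arrays share the 2 replicates and the 3 times. With the mean of each replicate removed, Sb03g043900 and Sb05g007310 had a Pearson r of 0.83, and Sb04g005720 and Sb05g007310 had 0.57. The segmental duplicates Sb04g005720 and Sb10g025240 had 0.03 after that step and 0.67 before it, so what they shared lay between the replicates. Every other pair of members also had a lower r after it, except Sb03g043900 and Sb05g007310 (0.75 before). Sb04g005720 and Sb09g028570, for example, went from 0.81 to 0.24. The drop was thus not particular to the duplicates. Among 22151 other loci well above background on all 12 arrays, those most like Sb03g043900 were Sb03g041300, annotated as an amidophosphoribosyltransferase, which opens purine synthesis (r = 0.98), Sb01g027850 (0.98) and Sb03g043540 (0.98). Those most like Sb05g007310 were Sb07g023210 (0.97), Sb03g042790 (0.96) and Sb10g003780 (0.96), and those most like Sb10g025240 were Sb04g025910 (0.98), Sb06g006001 (0.97) and Sb09g023140 (0.96). Sb04g005720 was most like Sb03g035680 (0.96), Sb10g000445 (0.95) and Sb01g026390 (0.95), and Sb09g028570 was most like Sb02g031440 (0.96), Sb05g021748 (0.96) and Sb01g005240 (0.96). No SPS locus was among the 3 most like another. With so many loci searched over 12 arrays, values this high are the top of a long list and name no shared control.

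The other genes of sucrose synthesis and cleavage were taken from a list of 25 loci, of which 21 passed the filter on dim probes. In the comparison of 6 h with 0 h, averaged over the cultivars, 2 of the 21 fell and 1 rose, beside 5.45% of all probes tested that fell and 3.67% that rose, and the median difference of the 21 was -0.26 beside 0.02 over all probes. Sb04g001320, a UDP-glucose pyrophosphorylase and so a supplier of one substrate of SPS, fell by 1.57 (SE 0.192, limma adjusted p = 0.00195), and it was also called at 6 h against 0 h within Keller (-1.58, adjusted p = 0.0255) and within BTX623 (-1.56, adjusted p = 0.0233). Sb03g045420, a hexokinase that phosphorylates free hexoses, fell by 1.34 (SE 0.275, adjusted p = 0.0159). Sb02g020400, the alpha subunit of a pyrophosphate-dependent phosphofructokinase, which interconverts fructose-6-phosphate and fructose bisphosphate, rose by 1.58 (SE 0.427, adjusted p = 0.0423). Neither of the 2 sucrose synthases on the list and none of its 3 tested invertases passed the test. With the replicate block the count of loci that fell was 3, the third being the invertase Sb06g023760 (-1.50, adjusted p = 0.0257, against 0.128 without the block), which the rule for named loci did not choose. In that fit 7.77% of all probes tested fell and 5.26% rose. For Keller against BTX623 as a mean over the times, 0 of the 21 were called, beside 5.00% of all probes tested. With no minimum fold 1 passed, beside 6.59% of all probes. It was Sb03g028080, annotated as similar to a putative phosphoglucomutase or phosphomannomutase C-terminal domain, at -0.50 with a limma adjusted p of 0.024.

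Summed levels of tissue markers moved with time as well. The summed level of the 3 leaf markers was lower at 6 h than at 0 h in all 4 same-numbered pairs, with log2 differences of -0.33 and -0.18 in Keller and of -0.65 and -0.29 in BTX623. That of the 3 root cap markers was higher, by 0.34 and 0.27 in Keller and by 0.51 and 0.33 in BTX623. In multiples of the 75th percentile, the leaf sum was 759 and 615 at 6 h against 955 and 697 at 0 h in Keller, and 705 and 724 at 6 h against 1107 and 888 at 0 h in BTX623. The root sum was 11.7 and 10.8 at 6 h against 9.24 and 8.92 at 0 h in Keller, and 9.79 and 11.9 at 6 h against 6.89 and 9.51 at 0 h in BTX623. No marker was at 0 on any array. The sums are linear, so the leaf sum rests mostly on the chlorophyll a-b binding protein. Its median log2 value was 9.13, against 6.82 for the Rubisco small chain and 6.78 for the carboxylase. The root sum rests on 2 root cap markers (medians 2.17 and 2.26, against -2.42 for the third). The change of each single marker is not given here. The leaf shift had the direction of the decline of Sb03g043900 and was smaller than it, and the part of these shifts in it was not tested.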

How the data were processed

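Total RNA from entire seedlings was labelled with Cy3 and hybridised to 12 arrays of a custom design. Scans were read with Agilent Feature Extraction 10.7.1.1. The authors deposited 1 scanner file an array, and the intensity used from it is the processed spot signal, which their software had background-subtracted and detrended within the array, with no normalization between arrays. A deposited table of rounded intensity values equalled them within 0.5% on all arrays when matched by row order, and was not used further.

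Outlier spots were left out. The log2 processed signal was reduced by the log2 of the 75th percentile of its array. The design probes numbered 41977 once probes printed on several spots and other probe sets were left out, and a probe was tested (31947 were) if some group had it well above background in both replicates. The model of limma 3.58.1 (R 4.3.3) had a mean for each of the 6 groups, a variance trend and no block, since the study names no test or normalization for its arrays, and each of 13 comparisons was adjusted on its own by the Benjamini-Hochberg method. Tests were two-sided. The script was tested on simulated arrays with known changes. The number of arrays limits the precision. Without a block, p-values measure the spread between the 2 repeats of a group, pooled over the 6 groups. With the replicate block they measure the spread left once the mean difference between the replicate numbers is removed. For the gap between replicates they measure how even that gap was over the 6 groups, from only 2 replicate numbers. For the product of replicate number and time they measure how alike the gap was in the 2 cultivars at each time.

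To see whether replicate numbers pair the arrays, group means were subtracted and same-numbered arrays were correlated over the probes. The correlation ran between 0.278 and 0.66 over the 15 pairs of groups, each above the limit of 0.1, so the fit with a replicate block is given where it changes a call. The pairing rests on this check, since no label ties a number to a planting, and the numbers go partly with slides.

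The 5 members are named in every comparison. Likeness was ranked by Pearson r over 12 arrays, with 3 loci named for each member, and at most 2 called loci of the pathway list were named in each direction. Members and lists were chosen with earlier results of these data known. Sucrose-phosphatase loci were not analysed here. The alternatives were quantile normalization, no scaling, normexp background correction with an offset of 50, other filters and flags, slide or replicate blocks, fits of only the arrays compared, no minimum fold, and each array left out in turn, where a group reduced to 1 array borrows its spread from the rest. The analysis used Python 3.11.15, numpy 2.4.6 and pandas 2.3.3.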

Additional observations from a re-analysis of the deposited data

How the results depend on the processing

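The decline of Sb03g043900 at 6 h, averaged over the cultivars, kept its direction in all alternatives and its call in all but the one with no scaling, where 0 members were called. With slide as a block 2 members were called there, the second being Sb05g007310. Within a cultivar, the number of members called at 6 h against 0 h was 1 in place of 0 with the slide block and with the replicate block in both Keller and BTX623, and with the slide block and replicate block together in Keller. For 6 h against 2 h it was 1 in place of 0 with each of these 3 blocks. The fit with both blocks was chosen after seeing the data. For the slide block and for both blocks together, the share of all probes called was not counted. Their counts of members called thus have no background beside them. The replicate block changed no other call of a member.

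Signs turned only for differences that were not called. For Keller minus BTX623 as a mean over the times, the slide block gave 0.019 at Sb04g005720, 0.071 at Sb05g007310, 0.18 at Sb09g028570 and 0.23 at Sb10g025240, and both blocks together gave 0.045 at Sb10g025240. For 6 h against 0 h, no scaling gave 0.013 at Sb04g005720 and 0.10 at Sb09g028570, and both blocks gave 0.015 at Sb09g028570. For the difference of the 6 h change at Sb03g043900, normexp gave 0.046. With single arrays left out, Keller minus BTX623 ran from -0.27 to 0.054 at Sb09g028570 and from -0.38 to 0.13 at Sb10g025240. The 6 h difference ran from -0.25 to 0.053 at Sb04g005720, from -0.25 to 0.23 at Sb09g028570 and from -0.10 to 0.67 at Sb10g025240. The difference of the 6 h change at Sb03g043900 ran from -0.45 to 0.30. The cause of these turns, and of the call lost without scaling, was not tested. The median difference of all probes at 6 h against 0 h was 0.02 as reported, 0.13 with no scaling and -0.10 with normexp.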
